A study of Mus musculus with 2 samples.

Results

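The enzymes described here conjugate foreign and endogenous compounds (phase II metabolism) or keep thiols and peroxides in check, and their probe sets were picked by gene symbol, with a rule that uses no measured value but was written with earlier results of these data known. The rule took probe sets whose symbol belongs to the Ugt1a, Ugt2a, Ugt2b, Sult, Gst, Mgst, Gpx, Prdx, Txnrd or Akr1 genes, or is Nqo1, Gclc, Gclm, Gsr, Gss, Txn1, Srxn1, Nfe2l2 or Keap1. It found 134 of 45101 probe sets. Of these, 123 carried 1 symbol and stood for 80 genes of the 18193 on the array, and 11 carried several symbols. A gene took its brightest probe set and was kept where its higher value reached 6.11 on the log2 scale, the median of all probe sets. This left 59 of the 80 genes, in 10 families, and all 59 reached the limit on both arrays.

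The samples were mucosal scrapings of the colon from C57BL/6 mice, labelled 6 to 8 weeks old and given as 7 weeks old in the design text. All mice had been given 3% dextran sulfate sodium (DSS), which damages the colonic epithelium and provokes colitis, for 3 days, and no mice without DSS were included. Hif-2αΔIE mice lack Epas1, the gene of the transcription factor HIF-2α, in the intestinal epithelium, a reading of the label from knowledge of this model since the Cre driver is not named in it. Hif-2αF/F mice carry the conditional alleles without deletion. The design text counts 5 ΔIE and 6 F/F mice, but there was 1 array per genotype, and the sources used here do not say whether RNA was pooled. With no replicate arrays the genotypes could not be tested against each other, and every difference below is the ΔIE value minus the F/F value of these 2 arrays, on the log2 scale after robust multi-array averaging (RMA).

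In phase II metabolism, UDP-glucuronosyltransferases add glucuronic acid, sulfotransferases add sulfate and glutathione S-transferases add the tripeptide glutathione, which makes compounds more soluble and ready for export. The colonic epithelium meets plant compounds, drugs, bile acids and bacterial products, and it carries many of these enzymes. Glutathione peroxidases and peroxiredoxins reduce peroxides, with electrons from glutathione or thioredoxin. The transcription factor NRF2, the product of Nfe2l2, induces many of these genes through the antioxidant response element once its inhibitor KEAP1 has been modified by oxidants or electrophiles.

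The 4 control probe sets for Cre read 7.86 to 10.01 on the array labelled ΔIE and 2.92 to 4.22 on the F/F array. They are controls of the platform, and the source of the RNA they detected was not determined. The brighter Epas1 probe set read 11.77 in ΔIE and 11.90 in F/F, and the dimmer one 7.15 in ΔIE and 6.98 in F/F, so neither showed a loss of signal. Their position relative to the deleted part was not determined. Markers of the colonic epithelium were present, and 9 of 12 colonocyte markers lay above 0, with a median of 0.15. Several lists of leukocyte and stromal markers were lower on the ΔIE array. Markers of T and NK cells (median -0.20) and of smooth muscle (0.02) differed less. All 13 neutrophil markers (median -1.56), all 13 macrophage and monocyte markers (-1.10) and 9 of 10 fibroblast and matrix markers (-0.88) lay below 0. All 7 posterior Hox genes kept, which mark the distal gut, lay below 0 as well (-1.49). The part of these shifts in the enzyme differences was not tested, and in bulk RNA fewer cells of a type and less RNA per cell cannot be told apart.

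Most of these enzymes read higher on the ΔIE array, by small amounts. Of the 59 genes kept, 45 lay above 0 (76.3%) and 14 below, and their median was 0.35. Of all 11899 genes kept, 52.7% lay above 0 and 46.5% below, and their median was 0.02. At 2-fold, 3 members were higher (5.08%) and none lower, against 1.15% higher and 5.30% lower over all genes kept, which together make 6.45%. At 1.5-fold, 11 members were higher (18.6%) and 4 lower (6.78%), against 4.37% and 10.6% over all genes kept. Of the colonocyte markers 9 of 12 lay above 0 on the same arrays.

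The 3 members at 2-fold came from 3 different families. The aldo-keto reductase gene Akr1c21, whose mouse enzyme acts as a hydroxysteroid dehydrogenase, read 8.69 in ΔIE and 6.86 in F/F, 3.54-fold higher. The glucuronosyltransferase gene Ugt2b5 read 9.94 in ΔIE and 8.40 in F/F, 2.92-fold higher. The sulfotransferase gene Sult1c2 read 9.77 in ΔIE and 8.71 in F/F, 2.08-fold higher and thus just inside the threshold. Just outside it lay Ugt2b35 (0.96), Gstm3 (0.93) and, on the other side, Gpx3 (-0.94). Each of the 3 was measured by a single probe set.

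The promoter windows of these 3 genes are shown because they carry the largest differences. Each window runs from 250 bases before to 50 bases after the start site in RefSeq on GRCm38.p6. Capitals mark matches on either strand to the cores searched. ACGTG stood for the core of the hypoxia response element, to which HIF proteins bind, and no other form of it was searched. TGACNNNGC stood for the core of the antioxidant response element.
Akr1c21, chr13:4573825-4574124, plus strand: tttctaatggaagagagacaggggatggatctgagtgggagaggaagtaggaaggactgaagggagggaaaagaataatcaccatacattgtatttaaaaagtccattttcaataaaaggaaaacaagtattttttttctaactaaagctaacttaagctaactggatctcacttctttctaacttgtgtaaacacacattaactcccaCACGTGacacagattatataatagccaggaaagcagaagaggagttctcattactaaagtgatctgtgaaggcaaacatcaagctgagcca
Ugt2b5, chr5:87140291-87140590, minus strand: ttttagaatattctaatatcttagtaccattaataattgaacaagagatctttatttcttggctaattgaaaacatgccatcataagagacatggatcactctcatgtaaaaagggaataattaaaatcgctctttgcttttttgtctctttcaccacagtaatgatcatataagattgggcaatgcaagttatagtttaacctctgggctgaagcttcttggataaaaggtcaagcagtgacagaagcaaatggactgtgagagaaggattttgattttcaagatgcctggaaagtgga
Sult1c2, chr17:53845909-53846208, minus strand: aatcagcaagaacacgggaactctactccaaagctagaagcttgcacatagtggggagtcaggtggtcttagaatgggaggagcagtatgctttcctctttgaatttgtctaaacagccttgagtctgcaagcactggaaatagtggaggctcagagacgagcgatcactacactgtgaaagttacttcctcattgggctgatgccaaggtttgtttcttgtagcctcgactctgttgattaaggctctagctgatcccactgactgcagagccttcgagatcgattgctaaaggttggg
Akr1c21 held the hypoxia core on both strands as 1 overlapping palindrome, 41 bases before the start site, while the windows of Ugt2b5 and Sult1c2 held neither motif. The hypoxia core was present in 14 of the 55 members with a window (25.5%) and in 21.8% of all 27025 genes with one. Of those 14 members 9 lay above 0, with differences from -0.85 (Gstp3) to 1.83 (Akr1c21) and a median of 0.26. Of the 41 members without the hypoxia core 34 lay above 0, with a median of 0.41. A match of letters is a description and shows no binding.

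**Figure D1:**
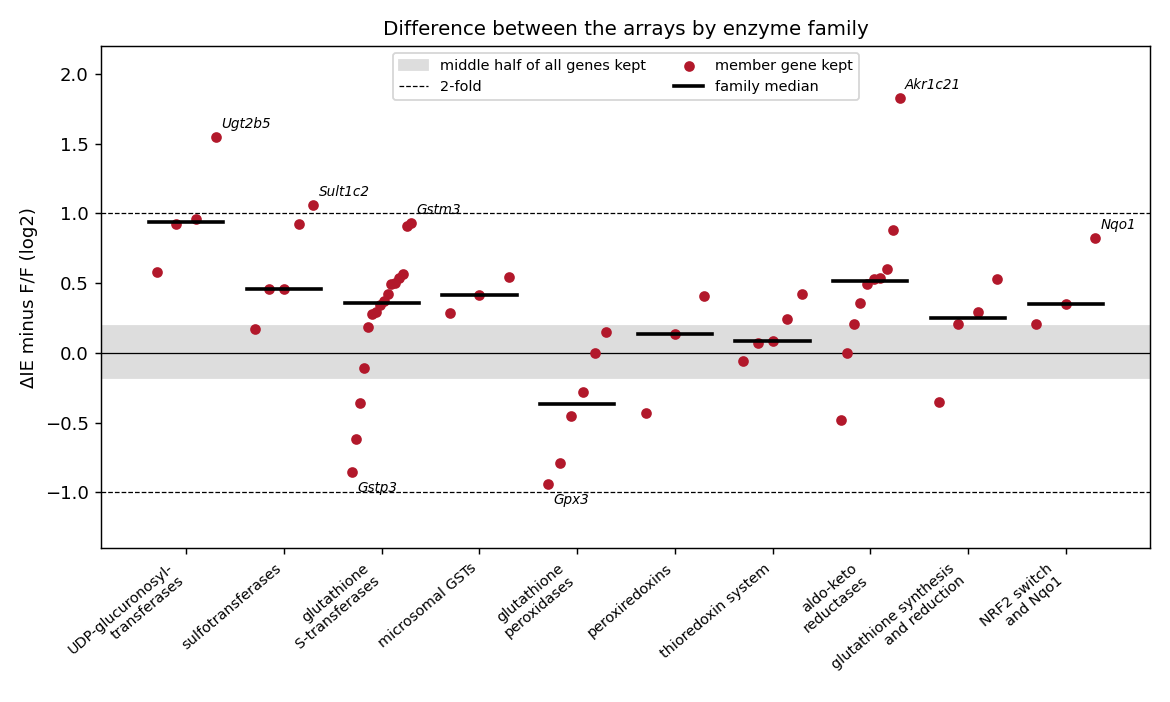
Difference between the arrays (ΔIE minus F/F, log2) for each of the 59 member genes kept, in 10 families. Points are genes, thick bars family medians, dashed lines the 2-fold threshold, and the grey band runs from -0.18 to 0.19, the lower and upper quartile of all 11899 genes kept. The UDP-glucuronosyltransferase median, over 4 Ugt2b genes, is at 0.94 and the glutathione peroxidase median at -0.37.

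All 4 UDP-glucuronosyltransferase genes kept read higher in ΔIE than in F/F, and their median difference was 0.94. These enzymes of the Ugt2b group act on steroids, bile acids and phenols. Next to Ugt2b5, Ugt2b35 read 9.72 in ΔIE and 8.76 in F/F. Ugt2b36 read 7.54 in ΔIE and 6.61 in F/F, a difference of 0.92. Ugt2b34 differed least, at 12.84 in ΔIE and 12.26 in F/F (0.58 by its brightest probe set and 0.41 by its other one). The Ugt1a genes, which include the bilirubin-conjugating enzyme, share their last exons, and 3 probe sets assigned to 8 of them together read 12.92 to 14.00 in ΔIE and 12.24 to 13.78 in F/F. Their differences ran from 0.21, that of the brightest, to 0.69, all above 0, and cannot be given to a single gene. The 4 remaining Ugt2 genes, Ugt2a3, Ugt2b1, Ugt2b37 and Ugt2b38, lay below the filter on both arrays and differed by 0.00 to 0.19, as did a probe set shared by Ugt2a1 and Ugt2a2 (3.46 in ΔIE and 3.31 in F/F).

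Sulfotransferases followed the same direction, with all 5 genes kept above 0 and a median of 0.46. Sult1a1, whose enzyme sulfates phenols, read 12.02 in ΔIE and 11.10 in F/F, a 1.89-fold difference. Sult1d1, which in the mouse acts on catecholamines and related amines, read 12.51 in ΔIE and 12.05 in F/F, and its second probe set differed by 0.57 in place of 0.46. Sult2b1, the cholesterol sulfotransferase, read 9.33 in ΔIE and 8.87 in F/F. Sult1b1 differed least, at 10.79 in ΔIE and 10.62 in F/F. The other 8 sulfotransferase genes were below the filter, among them the estrogen sulfotransferase gene Sult1e1 (3.92 in ΔIE and 3.80 in F/F) and Sult2a2 and Sult2a8 of the hydroxysteroid group.

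Genes listed for the supply, transport and removal of sulfate and glucuronic acid were also mostly higher. Of these 16 genes 15 were kept, 13 lay above 0, and the median was 0.29. The 13 include Arsb (0.27) and Sumf1 (0.02), which serve the removal of sulfate. The sulfate transporter gene Slc13a1 read 9.46 in ΔIE and 7.44 in F/F, and Slc35d1, whose product carries UDP-glucuronic acid into the endoplasmic reticulum, read 11.54 in ΔIE and 10.31 in F/F, 2.34-fold higher. Ugdh, the enzyme that makes UDP-glucuronic acid, differed by 0.43, and Papss2, which makes the sulfate donor PAPS, by 0.22. Papss1, which also makes PAPS, was level (-0.004). Bpnt1, a phosphatase that clears the used sulfate donor, differed by 0.58. Gusb, the beta-glucuronidase that removes glucuronic acid, lay below 0 (-0.29).

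The glutathione S-transferases of the Gst genes differed by class. Of 16 genes kept 12 lay above 0 and 4 below, with a family median of 0.36. All 7 mu class genes were higher, from 0.18 for Gstm5 to 0.93 for Gstm3, with a median of 0.50. Gstm3 read 11.55 in ΔIE and 10.62 in F/F by its brightest probe set, and its second differed by 0.60. Gstm1 read 11.19 in ΔIE and 10.65 in F/F, and its 4 probe sets agreed in direction, differing by 0.54, 0.56, 0.59 and 0.73. Gstm7, a dim gene at 6.73 in ΔIE and 6.16 in F/F, differed by 0.57, and its second probe set, below the filter, by -0.05. All 3 theta class genes kept were higher by 0.37 (Gstt1), 0.42 (Gstt3) and 0.49 (Gstt2). Gstk1, the kappa class enzyme of mitochondria and peroxisomes, read 11.31 in ΔIE and 10.40 in F/F, 1.88-fold higher.

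The alpha and omega classes went the other way. Gsta4, whose enzyme conjugates the lipid peroxidation product 4-hydroxynonenal, read 11.73 in ΔIE and 12.35 in F/F, 1.53-fold lower. Gsto1, an omega class thiol transferase, read 13.39 in ΔIE and 13.75 in F/F, and its second probe set differed by -0.42. Gsta3 differed by -0.11. The pi class was divided, with Gstp1 at 13.11 in ΔIE and 12.83 in F/F and Gstp3 at 6.96 in ΔIE and 7.81 in F/F. Gsta2 fell just short of the filter at 4.92 in ΔIE and 6.09 in F/F, a difference of -1.16, the one member past 2-fold in the downward direction. A probe set that the annotation gives to Gsta2 together with Gsta1 and a predicted gene read 9.82 in ΔIE and 9.94 in F/F, so the difference did not show there. Of the macrophage and monocyte markers 13 of 13 lay below 0 on the same arrays, and the log2 of their summed level was 13.03 in ΔIE and 14.15 in F/F. Whether they bear on the lower transferases was not tested.

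The microsomal glutathione S-transferases, membrane enzymes of another fold, were all higher, with a median of 0.41. Mgst2, which can also make leukotriene C4, read 12.13 in ΔIE and 11.59 in F/F. Mgst1 read 12.51 in ΔIE and 12.10 in F/F. Mgst3 read 13.23 in ΔIE and 12.95 in F/F, with a second probe set at 0.41 against 0.28 for the brightest. None of the 3 reached 1.5-fold.

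**Figure D2:**
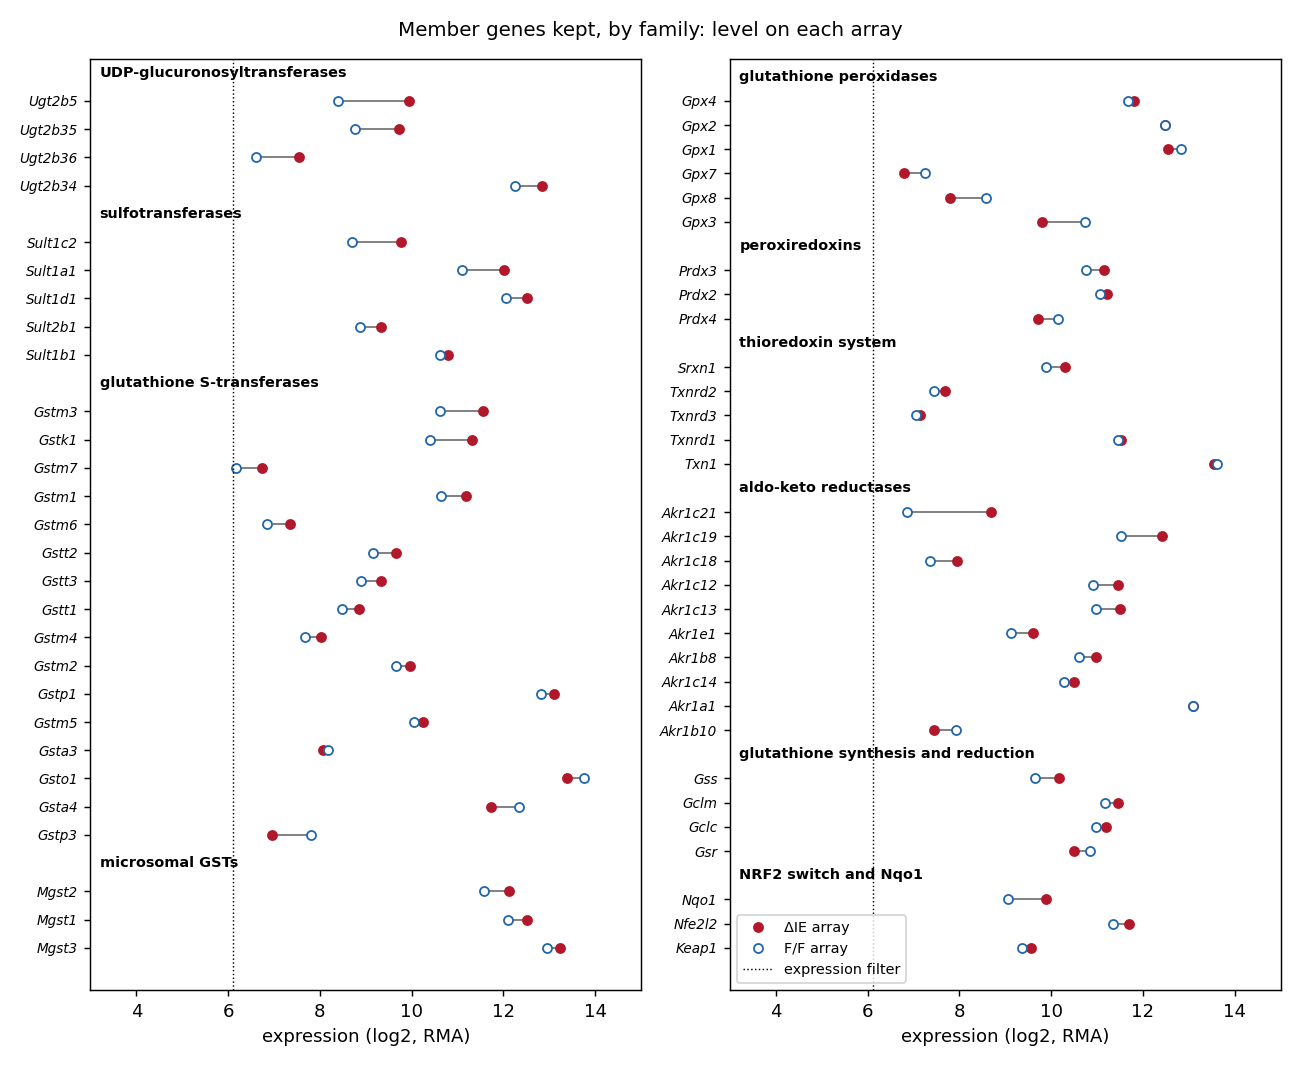
Expression (log2, RMA) of the 59 member genes kept on the ΔIE array (filled) and the F/F array (open), grouped by family and sorted by their difference. The dotted line is the expression filter at 6.11. Filled points lie to the right of open ones for 45 genes, and to the left for 14, among them 5 of the 6 glutathione peroxidases.

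Aldo-keto reductases reduce aldehydes and ketones, including steroids and prostaglandins. Of 10 Akr1 genes kept 8 lay above 0, and the family median was 0.51. All 6 Akr1c genes kept were higher. After Akr1c21, Akr1c19 read 12.41 in ΔIE and 11.52 in F/F, a 1.84-fold difference. Akr1c18, the mouse 20-alpha-hydroxysteroid dehydrogenase that inactivates progesterone, read 7.95 in ΔIE and 7.35 in F/F. Akr1c12 and Akr1c13 differed by 0.54 and 0.53, and a probe set that the annotation gives to both differed by 0.61. Akr1c14 differed least of the 6, at 10.50 in ΔIE and 10.29 in F/F. Akr1e1 was higher by 0.49 and Akr1b8 by 0.36. Akr1a1, the broadly expressed aldehyde reductase, was level at 13.09 in ΔIE and 13.10 in F/F. Akr1b10 was the one clearly lower, at 7.45 in ΔIE and 7.93 in F/F, and its 3 probe sets differed by -0.48, -0.47 and -0.57.

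The regulators Nfe2l2 and Keap1 and the marker target Nqo1 were all higher on the ΔIE array. Nqo1, a quinone reductase that is a classical NRF2 target, read 9.89 in ΔIE and 9.07 in F/F, a 1.77-fold difference by its single probe set. Nfe2l2 read 11.70 in ΔIE and 11.34 in F/F, and its dimmer probe set read 6.95 in ΔIE and 6.10 in F/F, a larger difference of 0.85 against 0.35. Keap1 differed by 0.21 and, by its second probe set, by 0.16. Srxn1, the sulfiredoxin that repairs overoxidised peroxiredoxins and another NRF2 target, read 10.30 in ΔIE and 9.88 in F/F, and its 4 probe sets differed by 0.21 to 0.67.

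Glutathione is made by glutamate-cysteine ligase and then glutathione synthetase. The catalytic subunit gene Gclc read 11.19 in ΔIE and 10.98 in F/F, and the modifier subunit gene Gclm 11.46 in ΔIE and 11.17 in F/F. Gss, the synthetase gene, read 10.18 in ΔIE and 9.65 in F/F, and both its probe sets differed by about the same amount, 0.53 and 0.50. Gsr, the reductase that returns oxidised glutathione to its reduced form, read 10.50 in ΔIE and 10.85 in F/F, and its second probe set differed by -0.32. So the genes of synthesis lay above 0 and the recycling enzyme below it. Of 19 genes listed for glutathione uptake, turnover and the glyoxalases, 17 were kept, 11 lay above 0 and the median was 0.24. Their largest differences went both ways: the dipeptidase gene Dpep1 read 11.43 in ΔIE and 9.91 in F/F, Cbs, which starts the making of cysteine from homocysteine, 9.58 in ΔIE and 8.49 in F/F, and Slc7a11, the cystine importer gene and an NRF2 target, 5.84 in ΔIE and 7.44 in F/F.

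NRF2 target genes outside the enzyme families did not share 1 direction. Of 25 listed, 21 were kept, 13 lay above 0 and 8 below, and the median was 0.12. The retinaldehyde dehydrogenase gene Aldh1a1 was 2.06-fold higher, the carbonyl reductase genes Cbr3 and Cbr1 were 1.95-fold and 1.56-fold higher, and Me1, which makes NADPH, was 1.51-fold higher. The heme oxygenase gene Hmox1 read 5.96 in ΔIE and 6.35 in F/F, and the export pump gene Abcc4 was 2.11-fold lower. Of 14 regulators kept from a list of 17, 8 lay above 0, with a median of 0.02. The nuclear receptor gene Ppara (1.17) and the intestinal factor gene Cdx2 (1.02) were highest, the xenobiotic receptor gene Nr1i2 differed by 0.60, and Ahr (-0.74) and Bach2 (-1.37) were lowest. Bach2 is also a B cell gene, and all 9 B and plasma cell markers kept lay below 0 with a median of -1.67. Their part in the Bach2 value was not tested.

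The antioxidant response element core, TGACNNNGC or GCNNNGTCA on the other strand, was found in the window of 9 of the 55 members with one (16.4%), against 14.0% of all genes. These 9 sites are shown in capitals with 10 bases on each side, from RefSeq GRCm38.p6, to show where the letters of the core lie among the members; the share of members holding it is near that of all genes.
Akr1c19, chr13:4233737-4233765, plus strand: agcagaacttGCTTAGTCAgaagagtgat
Gclm, chr3:122245413-122245441, plus strand: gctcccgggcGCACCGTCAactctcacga
Gsta3, chr1:21240454-21240482, plus strand: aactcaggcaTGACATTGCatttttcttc
Gstm5, chr3:107895802-107895830, plus strand: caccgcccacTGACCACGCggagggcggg
Gstm7, chr3:107931725-107931753, minus strand: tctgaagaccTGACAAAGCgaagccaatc
Mgst1, chr6:138140461-138140489, plus strand: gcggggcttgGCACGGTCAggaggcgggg
Nfe2l2, chr2:75704885-75704913, minus strand: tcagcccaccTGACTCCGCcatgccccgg
Srxn1, chr2:152105542-152105570, plus strand: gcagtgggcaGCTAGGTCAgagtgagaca
Txnrd1, chr10:82859104-82859132, plus strand: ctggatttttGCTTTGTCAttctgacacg
They stood before the start site except in Akr1c19 and Srxn1. Of the 9 genes 8 lay above 0, with a median of 0.35 and a range from -0.11 (Gsta3) to 0.88 (Akr1c19). Of the 46 members with a window and no such core 35 lay above 0, with a median of 0.36. Whether the core bears on the differences was not tested, and the kept members Gsta4, Gstt2, Gclc and Gsr had no window. Elements farther from the start site were not searched, and Nqo1 had no match in its window.

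Peroxiredoxins differed in both directions, and of the thioredoxin system only Srxn1, at 0.43, and Txnrd2, at 0.24, lay outside the quartiles of all genes kept. Prdx3, the mitochondrial peroxiredoxin, read 11.16 in ΔIE and 10.75 in F/F. Prdx2, of the cytosol, read 11.21 in ΔIE and 11.07 in F/F. Prdx4, of the endoplasmic reticulum, lay below 0, at 9.72 in ΔIE and 10.16 in F/F, and its second probe set differed by -0.57. Its 2 dim probe sets, below the filter, differed by 0.16 and 0.22. A further 5 probe sets, which the annotation gives to Prdx1 and a predicted gene together, differed by 0.04 to 0.37. The brightest of them read 13.40 in ΔIE and 13.29 in F/F. The largest difference was that of the dimmest, at 7.72 in ΔIE and 7.35 in F/F. The thioredoxin reductase genes Txnrd1, Txnrd2 and Txnrd3 differed by 0.07, 0.24 and 0.08, and thioredoxin itself (Txn1) by -0.06, at 13.56 in ΔIE and 13.61 in F/F. The thioredoxin family median, 0.08, lay between the quartiles of all genes kept, -0.18 and 0.19.

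Glutathione peroxidases were the family with the lowest median, -0.37, and 5 of the 6 genes kept lay below 0. Gpx3, which encodes a secreted peroxidase found in plasma and matrix, read 9.81 in ΔIE and 10.74 in F/F, 1.92-fold lower. Gpx8 and Gpx7, which encode peroxidases of the endoplasmic reticulum, read 7.79 in ΔIE and 8.58 in F/F, and 6.79 in ΔIE and 7.24 in F/F. Gpx1, the ubiquitous cytosolic enzyme, differed by -0.28. Gpx2, which encodes the peroxidase of the gastrointestinal epithelium, was level at 12.47 on each array and counts as below 0 by -0.0015. Gpx4, which reduces lipid hydroperoxides and protects from ferroptosis, read 11.81 in ΔIE and 11.67 in F/F. Among other antioxidant enzymes the extracellular superoxide dismutase gene Sod3 was 2.19-fold lower, while Sod1 differed by 0.27, Sod2 by -0.05 and the catalase gene Cat by 0.36. Over these 18 genes, all kept, 11 lay above 0 and the median was 0.21. The fibroblast and matrix markers lay below 0 for 9 of 10 genes on the same arrays, with a log2 summed level of 14.44 in ΔIE and 15.18 in F/F. Their part in the lower values of Gpx3, Gpx7, Gpx8 and Sod3 was not tested.

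Members of a family often lie side by side in the genome. Of all 59 members kept 45 lay above 0 (76.3%), and neighbours were not compared with members outside such groups. In RefSeq, all 7 Gstm genes form 1 group, and all were above 0. The 9 Akr1c and Akr1e genes of another group had 7 kept, all above 0, and the Ugt2 group had 4 of 8 kept, all above 0. The 4 Gstt genes had 3 kept, again all above 0. The pairs Gstp1 with Gstp3 and Akr1b8 with Akr1b10 were each divided, with 1 gene above 0 and 1 below. Neighbours are also close relatives in sequence, so that a probe set can pick up more than 1 of them, and which transcripts each probe set detects was not tested.

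Where at least 2 probe sets of a member passed the filter, they mostly gave the same direction. Among 22 such genes the brightest and second probe sets had the same sign in 20, and the gap between them had a median of 0.07. The 2 exceptions were Akr1a1 and Txn1, both within 0.06 of 0. Over all 5110 such genes the sign was the same in 3991, the median gap was 0.10 and 95% lay within 0.41. Only Nfe2l2, with a gap of 0.49, lay beyond that limit among the members. These gaps measure agreement of probes within 1 pair of arrays and say nothing about variation between mice.

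**Figure D3:**
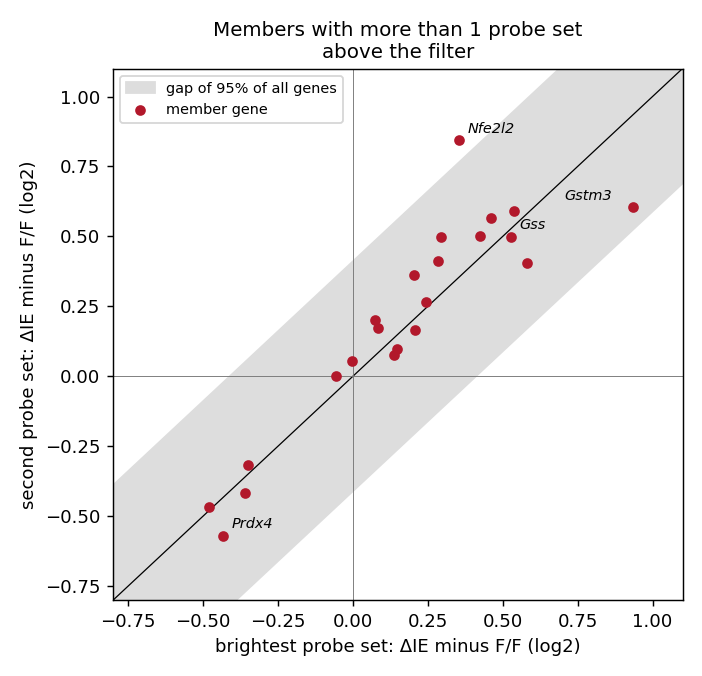
Difference between the arrays (ΔIE minus F/F, log2) by the brightest probe set (horizontal) and the second brightest (vertical) for 22 member genes, those in which at least 2 probe sets passed the filter. The line marks equality and the grey band the gap of 0.41 within which 95% of all such genes lie; Nfe2l2 is the 1 member outside it.

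The remaining list, other phase II enzymes, had 8 of 12 genes kept, 6 above 0 and a median of 0.10. The thiopurine methyltransferase gene Tpmt was 1.54-fold higher, the soluble epoxide hydrolase gene Ephx2 1.40-fold, Nat2 differed by 0.08 and the methyltransferase gene Inmt by -0.42. Lists of the epithelium and of nearby tissue went both ways on the same arrays. Goblet cell markers had a median of 0.46, enteroendocrine markers 1.24, adipose markers 0.90 and the 7 small intestine markers kept 0.55. Squamous epithelium markers had a median of -1.36. Below 0 lay 2 of the 10 enteroendocrine markers, Insl5 (-2.73) and Pyy (-0.58), and 2 of the 7 small intestine markers. Markers of T and NK cells had a median of -0.20, endothelium -0.61, smooth muscle 0.02 and skeletal muscle 1.24. The part of these tissues in the enzyme differences was not tested.

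**Figure D4:**
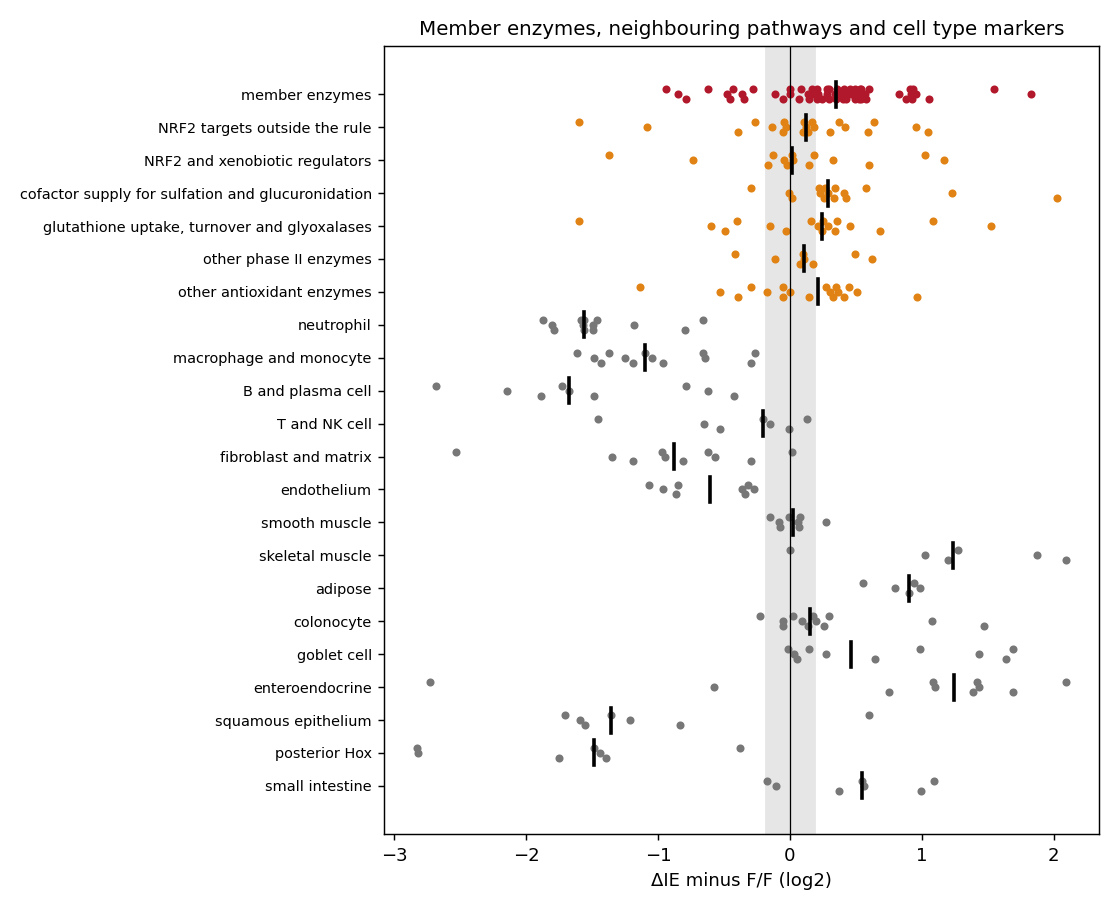
Difference between the arrays (ΔIE minus F/F, log2) for genes kept of the member enzymes (red), 6 lists of neighbouring pathways (orange) and 15 lists of cell type or regional markers (grey). Points are genes, black bars medians, and the grey band spans the quartiles of all genes kept; the enzyme median is at 0.35, the macrophage and monocyte median at -1.10 and the colonocyte median at 0.15.

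The 21 members below the filter read 2.67 to 5.56 in ΔIE and 2.56 to 6.09 in F/F. They include genes known from other organs, such as Gpx5 of the epididymis, Gpx6 of the olfactory epithelium, Sult4a1 of the brain and Akr1d1 of the liver. Apart from Gsta2, they differed by -0.25 (Sult3a1) to 0.57 (Akr1d1). Both arrays gave exactly equal values for 5 member probe sets, of which 1, the second probe set of Txn1, passed the filter, and for 1699 probe sets in all. Differences at levels below the filter, that of Gsta2 included, have no detection call beside them.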

How the data were processed

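Per the labels' protocols, 250 ng of Trizol-extracted RNA was amplified and labelled with biotin. The deposited values are log2 expression made by the authors with affy and RMA, per the submitters' processing notes; the sources used here give no versions, and do not say whether further arrays entered the normalization. Quantile normalization hides a change shared by most genes, RMA tends to shrink differences of dim probe sets, and no detection calls were used. Symbols came from the platform annotation, which gave 1 symbol to 34958 probe sets, several to 932 and none to 9211; 64 control probe sets were left out. Of the 123 member probe sets with 1 symbol, 123 were found by Entrez ID in RefSeq (GRCm38.p6) and 0 changed symbol. Listed genes under an older symbol were matched by its synonyms.

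Each gene took its single-symbol probe set with the highest mean, and was kept where its higher value reached 6.11. With 1 array per genotype no test was run; fold is 2 to the size of the log2 difference, and the number of arrays limits precision. Named are all members at 2-fold, up to 2 members of largest difference in each direction per family, those listed singly in the rule, members nearest 2-fold, and up to 4 genes per accompanying list, with others beside them as values. The members and lists were chosen with earlier results of these data known. Gene values and the share of unshifted genes at 2-fold were checked on simulated data, without the filter or the member counts. Alternatives were the mean over probe sets, leaving out _s_at and _x_at probe sets, 3 other filters, median centring, lowess (span 0.3) and thresholds of 1.5-fold and 3-fold. Python 3.11.15, numpy 2.4.6, pandas 2.3.3, statsmodels 0.14.6 and matplotlib 3.10.9 were used.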

Additional observations from a re-analysis of the deposited data

How the results depend on the processing

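Of 30 member genes followed by name, 0 changed direction past 2-fold and 0 moved by over 0.41 on the log2 scale. This held with probe sets averaged, without _s_at and _x_at probe sets, with median centring and with lowess. The first count leaves out sign changes near 0. Akr1a1 went from -0.002 to 0.04 with probe sets averaged and to 0.01 with median centring. Averaging could not move genes with 1 probe set, and median centring moved all genes by the same amount. Of 70 values of family medians under 7 alternatives, 0 reversed and 66 moved by no more than 0.10, the median gap between probe sets. The 4 others were the medians without a filter of UDP-glucuronosyltransferases (0.38), sulfotransferases (0.26) and glutathione peroxidases (-0.14), where dim genes join, and the median of Nfe2l2, Keap1 and Nqo1 with probe sets averaged (0.60), where the dimmer Nfe2l2 probe set counts. Part of the 70 values was fixed in advance. A filter on both arrays kept the same 59 genes, so its medians could not move. Median centring shifted every median by the same small amount. The median over all members was 0.28 to 0.37. The count of members lower at 2-fold, 0, became 1 without a filter and 1 after lowess, in both cases Gsta2. At 1.5-fold 11 members were higher and 4 lower, and at 3-fold 1 was higher and 0 lower. Over all genes 1267 were lower and 520 higher at 1.5-fold, 177 and 20 at 3-fold, and 487 and 106 with probe sets averaged. No paired analysis was possible because each genotype had 1 array. Spread between mice could not be estimated, so none of these values bounds it.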
